A study of Homo sapiens with 2 samples.

Results

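Tight site groups were 2 or 3 T-to-C sites of 1 strand packed into at most 30 nt and standing apart from all other sites. They were found in the PAR-CLIP site list of HA-METTL14 in HepG2 cells by chaining the middle bases of the listed intervals. Sites of either strand no more than 1000 nt apart formed a locus, chromosome M was left out, and a locus was kept when it held exactly 2 or 3 sites, all on 1 strand, with the first and last at most 30 nt apart. The rule gave 206 groups among 4947 nuclear loci, 4.16% (95% Wilson interval 3.64 to 4.76%). They held 418 of the 5950 nuclear sites, 7.03% (6.40 to 7.70%), and the whole list has 5981 sites. The members were chosen by the position and strand of their sites, so the spacing and strand within groups are a description only. The rule did not use the scores of the sites, the order of scores along the strand, or sites more than 1000 nt away.

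All data came from 1 group, HA-METTL14, with replicates 1 and 2 as its 2 libraries. HepG2 is a human hepatocellular carcinoma line. Its cells were infected with a lentivirus carrying METTL14 with an HA tag at the N-terminus and EGFP at the C-terminus, selected with puromycin and sorted for high GFP, so the protein caught is an overexpressed fusion. For both libraries 4-thiouridine was added at 200 µM, and after 16 h the cells received 0.15 J/cm2 of UV light at 365 nm in each of 3 rounds. The authors deposited 1 list over both libraries, with 1 score per site. No value below therefore has an error between replicates, and every interval covers the counting of sites or groups only. Sites of 1 group or locus are not independent, so intervals over grouped sites are too narrow, the share of nuclear sites above included. Read depth is unknown, and no control library was analysed here.

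METTL14 pairs with METTL3 in the nuclear complex that writes N6-methyladenosine into RNA. METTL3 carries the catalytic site, and METTL14 helps to hold the RNA. The complex is known for methylating adenosines in the motif named DRACH, often near stop codons and in long exons. In PAR-CLIP, 4-thiouridine in RNA is crosslinked to the bound protein, and reverse transcription then reads the crosslinked uridine as C. A stretch of bound RNA can hold more than 1 such uridine, and a single read can carry more than 1 T-to-C change. RNase T1, which cuts after G, sets where the recovered fragments can end. The sequence and genes under the groups were not analysed here, since no hg19 sequence or annotation was used, and no sequence is printed.

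The loci of 2 or 3 sites fell into 3 kinds. Of these 479 loci, 17 held sites of both strands, and 0 of these had a span of at most 30 nt. A further 256 loci had all sites on 1 strand but a span over 30 nt, and these are called wider loci below. Of the wider loci, 218 had 2 sites and 38 had 3. The 60 loci of 4 or more sites are called crowded loci, and the 4408 loci of 1 site lone sites. Of the 206 tight groups, 200 had 2 sites and 6 had 3. They lay on both strands in like numbers, with 104 plus and 102 minus (50.5% plus, 43.7 to 57.2%).

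Sites in tight groups were mostly only a few nucleotides apart. The span from the first to the last site had a median of 9 nt (8 to 11) and quartiles of 4 and 13.75 nt. Of the 212 gaps between neighbouring sites, 122 were 1 to 10 nt, 66 were 11 to 20 nt and 24 were 21 to 30 nt. The most frequent spans were 9 and 12 nt, with 18 groups each, followed by 3 nt with 16 groups, 1 nt with 15 and 2 nt with 14. Beyond 14 nt the numbers were small: 16 and 19 nt had 7 groups each, no other span from 15 to 30 nt had more than 4, and 20 nt had 0.

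**Figure D1:**
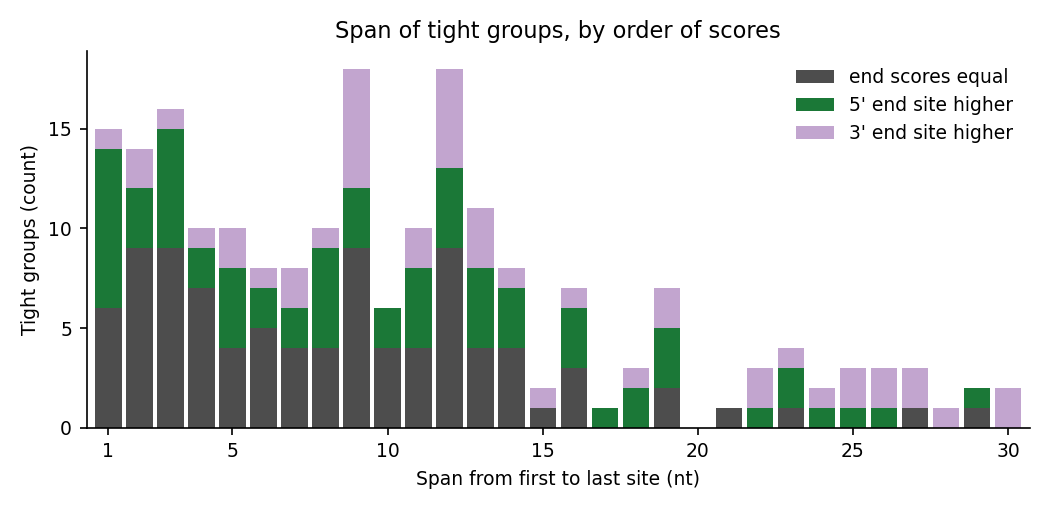
Number of tight groups (bars) at each span in nt, divided into groups with equal end scores, groups with the higher score at the 5′ end site and groups with the higher score at the 3′ end site. The tallest bars stand at 9 and 12 nt with 18 groups each, and few groups lie beyond 14 nt.

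The gaps of crowded loci are given beside these as a description, since the rule itself limits the span of tight groups. In tight groups 57.5% of gaps (50.8 to 64.0%) were at most 10 nt. Crowded loci had 207 same-strand gaps of at most 30 nt in 50 of the 60 loci, and 44.9% of these (38.3 to 51.7%) were at most 10 nt. Gaps of 1 nt, which means adjacent bases, made up 7.55% of gaps in tight groups and 4.35% in crowded loci. Gaps of 1 crowded locus are not independent.

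At the limit of the rule the list was thin. A span of 28 nt occurred once, at 10502131 to 10502159 on the minus strand of chromosome 19, with scores of 3 at the 5′ and 4 at the 3′ site. At 29 nt there were a minus-strand group on chromosome 1 from 35899504 (scores 7 and 6) and a plus-strand group on chromosome 7 from 143295957 (5 and 5). At 30 nt there were a minus-strand group on chromosome 16 from 88802762 (11 and 34) and a plus-strand group on chromosome 22 from 39910158 (8 and 9). Just outside, the only same-strand locus with a span of 31 to 33 nt lay on the minus strand of chromosome 3 from 128807131 to 128807163, with both scores at 3. The highest score at these spans was 34.

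The deposited score is the authors' own whole number, at least 3, with no unit stated in the labels or the list. It is used only to describe and rank sites within this list. Sites in tight groups had a median score of 7 (order-statistic interval 6 to 8), with quartiles of 4 and 33.75 and a highest value of 115250. Lone sites had a median of 5 (5 to 5) with quartiles of 3 and 8, and sites of wider loci a median of 6 (6 to 7) with quartiles of 4 and 19. The upper part of the range set tight groups apart from lone sites: 15.8% of their sites (12.6 to 19.6%) had a score of at least 100, against 4.22% (3.66 to 4.85%) of lone sites. That difference was 11.6 percentage points (95% Newcombe interval 8.33 to 15.4). Sites of wider loci were close to tight groups, with 13.5% (10.9 to 16.6%) at 100 or more. The lowest listed score, 3, was held by 20.6% of sites in tight groups, 29.8% of lone sites and 19.1% of sites in wider loci. Only scores of at least 3 are listed, and a group needs at least 2 listed sites, so grouping and score can be linked through the list itself. That link was not tested.

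Tight groups and wider loci had like highest scores, and their lowest scores differed. The higher site of each group had a median score of 9 (7 to 13) and the lower site a median of 6 (5 to 7). In wider loci the higher site had a median of 10 (7 to 13), much the same, but the lower site a median of 4 (4 to 5).

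The scores within a tight group were often equal. In 92 of the 206 groups, 44.7% (38.0 to 51.5%), the 2 end sites had exactly the same score. In wider loci this held for 31 of 256, 12.1% (8.66 to 16.7%), a difference of 32.6 points (24.5 to 40.2). The ratio of the highest to the lowest score in a group had a median of 1.13 (1 to 1.29) in tight groups and 2 (1.73 to 2.33) in wider loci. Scores lay at most 2 times apart in 75.7% of tight groups (69.4 to 81.1%) and 54.3% of wider loci (48.2 to 60.3%). At the other end, 16 tight groups, 7.77% (4.84 to 12.2%), and 39 wider loci, 15.2% (11.3 to 20.1%), had scores at least 10 times apart.

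**Figure D2:**
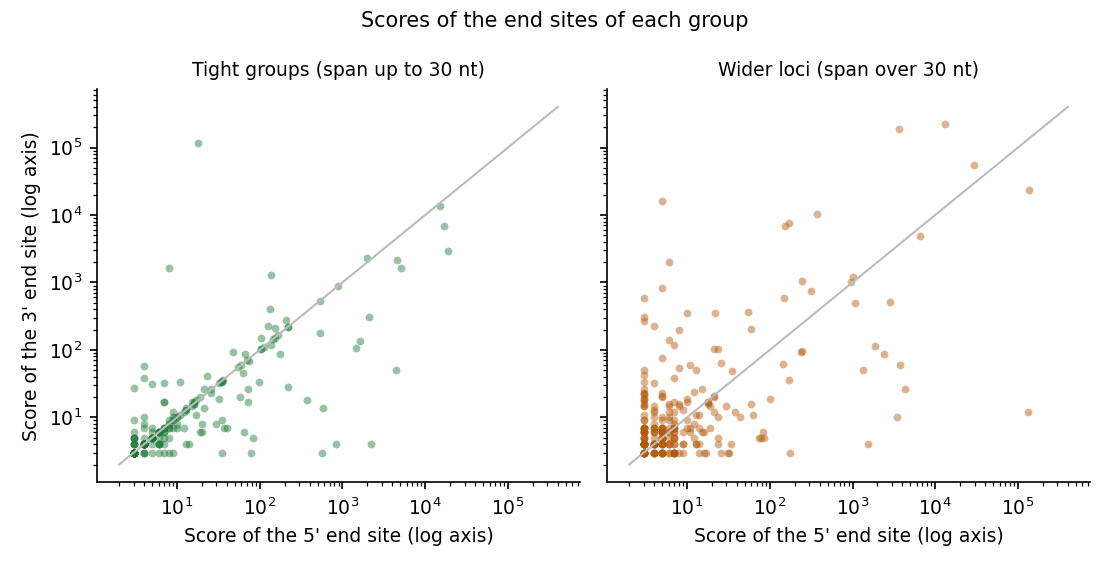
Score of the 5′ end site (horizontal, log axis) against that of the 3′ end site (vertical, log axis), 1 point per group, with tight groups at left and wider loci at right; the grey line marks equal scores. Of the groups with a score of at least 10 at any site, 25 of 101 tight groups and 1 of 129 wider loci lie on the line. Over all sites, with middle sites that are not plotted, 55 of these tight groups and 31 of these wider loci have scores at most 2 times apart.

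Whole-number scores near the minimum can be equal with ease, so the groups were also set out by their highest score. Where that was 3, all 32 tight groups and all 11 wider loci were equal, as they had to be. Where it was 4 to 9, 47.9% of 73 tight groups and 16.4% of 116 wider loci were equal. From 10 to 29 the shares were 28.1% of 32 and 1.67% of 60, and from 30 to 99 they were 25.0% of 32 and 0 of 22. At 100 or more, 8 of 37 tight groups, 21.6% (11.4 to 37.2%), had equal end scores and 0 of 47 wider loci did, a share whose upper limit was 7.56%. For all groups with a score of at least 10, 25 of 101 tight groups and 1 of 129 wider loci were equal, a difference of 24.0 points (15.8 to 33.2). Neither this set nor the level of 100 or more has an upper bound, so the 2 kinds were not matched for score there. Scores reached 115250 in tight groups and 225775 in wider loci, and the highest equal score in tight groups was 534. The share of equal groups was lower at higher scores in both kinds. It was higher in tight groups at each level above 3, though at 30 to 99 the intervals overlap.

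**Figure D3:**
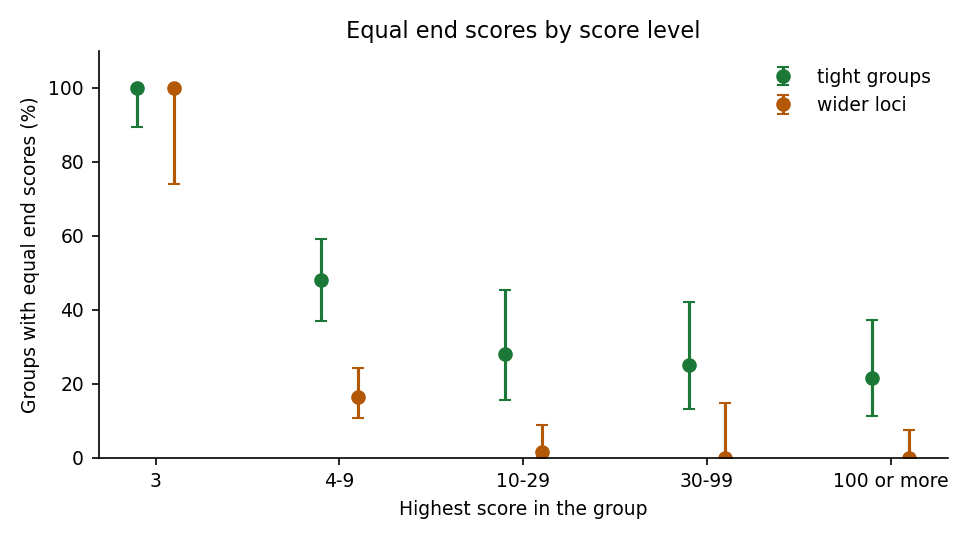
Share of groups with equal end scores (percent, points, with 95% Wilson intervals as bars) against the highest score in the group, for tight groups and wider loci. Above a score of 3 each tight-group point lies above its wider-locus point, with 21.6% against 0 of 47 at scores of 100 or more.

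Some of the equal groups had high scores. The highest lay on the minus strand of chromosome 1 at 149514123 and 149514134, 11 nt apart, with a score of 534 at both sites. On chromosome 11, 2 adjacent minus-strand bases at 76381465 and 76381466 both had 222. A plus-strand group on chromosome 6 at 157322888 and 157322896, 8 nt apart, had 220 at both. A plus-strand group on chromosome 1 at 14849109 and 14849121, 12 nt apart, had 166 at both, and one on chromosome 19 at 21830281 and 21830288, 7 nt apart, had 151 at both. The gaps in these 5 groups ran from 1 to 12 nt. In 22 of the 114 unequal groups the end scores differed by 1.

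Equal scores were most frequent at spans of 2 to 10 nt, in shares not divided by score level. The share was 40.0% of the 15 groups with a span of 1 nt, 58.0% of 50 at 2 to 5 nt, 52.0% of 50 at 6 to 10 nt and 44.9% of 49 at 11 to 15 nt. It was 27.8% of 18 at 16 to 20 nt and 16.7% of 24 at 21 to 30 nt. In wider loci it was 24.1% of 29 at 31 to 50 nt, 18.4% of 38 at 51 to 100 nt, 6.94% of 72 at 101 to 300 nt and 10.3% of 117 beyond. Past 20 nt tight groups thus had shares like those of wider loci just beyond the limit, and the intervals overlap. Close sites can be covered by the same reads. The part of shared reads in the equal scores was not tested, since the list gives no read lengths and no unit for the score.

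Equal scores were less frequent between close neighbours of crowded loci. There, same-strand neighbours within 30 nt had equal scores in 9 of 207 pairs, 4.35% (2.30 to 8.06%). Neighbouring pairs in tight groups had them in 94 of 212, a difference of 40.0 points (32.5 to 47.0). The median ratio of scores was 3.3 (2.29 to 5.07) in the crowded pairs, and 34.8% of them were at least 10 times apart. The crowded pairs had far higher scores, with a median of 536 (300 to 1159) for the higher site against 9 (7 to 14) in tight groups. Pairs were therefore also compared by level of score. Where the higher score was 4 to 9, 4 of 9 crowded pairs and 37 of 75 tight pairs were equal, and where it was 10 to 29, 3 of 15 and 10 of 33, with overlapping intervals at both levels. From 30 to 99 it was 1 of 36 crowded pairs, 2.78% (0.492 to 14.2%), against 7 of 33, 21.2% (10.7 to 37.8%), and these intervals overlap too. At 100 or more it was 0 of 146 crowded pairs, with an upper limit of 2.56%, against 8 of 39, 20.5% (10.8 to 35.5%). Only at this level did the intervals separate, but it has no upper bound, so its pairs were not matched for score. The highest equal score in tight groups was 534, below the median of 536 for the higher site over all crowded pairs. Pairs of 1 crowded locus are not independent, so these intervals are too narrow.

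The higher score was somewhat more often at the 5′ site than at the 3′ site in tight groups, by a margin near the counting error. Among the 114 groups with unequal end scores, the 5′ site had the higher score in 68 and the 3′ site in 46, so the 5′ share was 59.6% with an interval of 50.5 to 68.2% whose lower bound is close to 50%. The interval took in 50% under 5 of 8 alternatives, among them leaving out the groups of adjacent bases (57.1%, 47.6 to 66.2%). In wider loci the 5′ site was higher in 98 of 225, 43.6% (37.2 to 50.1%). The 2 shares differed by 16.1 points (4.83 to 26.7), and with a span limit of 50 nt by 10.3 points (-0.524 to 20.8), which includes 0. Both strands gave like values in tight groups, with 61.4% of 57 on the plus and 57.9% of 57 on the minus strand. The share was 57.9% of 38 groups whose highest score was under 10, and 60.5% of 76 with 10 or more.

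The 5′ share was higher at spans up to 20 nt. There the 5′ site was higher in 61 of 94 unequal groups, 64.9% (54.8 to 73.8%), against 7 of 20, 35.0% (18.1 to 56.7%), at 21 to 30 nt. The difference was 29.9 points (5.96 to 49.0); the limit of 20 nt was chosen after the values were seen. Groups of adjacent bases were the most one-sided, with the 5′ base higher in 8 of 9 unequal groups, 88.9% (56.5 to 98.0%). The share was 71.4% at 2 to 5 nt, 58.3% at 6 to 10 nt, 55.6% at 11 to 15 nt and 69.2% at 16 to 20 nt. From 6 to 20 nt each of these intervals took in 50%. Where the 5′ site was higher the median ratio was 2.38 (1.55 to 3.10), and 13 of 68 groups were at least 10 times apart, 19.1% (11.5 to 30.0%). Where the 3′ site was higher the median ratio was 1.67 (1.33 to 2), and 3 of 46 were at least 10 times apart, 6.52% (2.24 to 17.5%). The intervals of these values overlap.

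**Figure D4:**
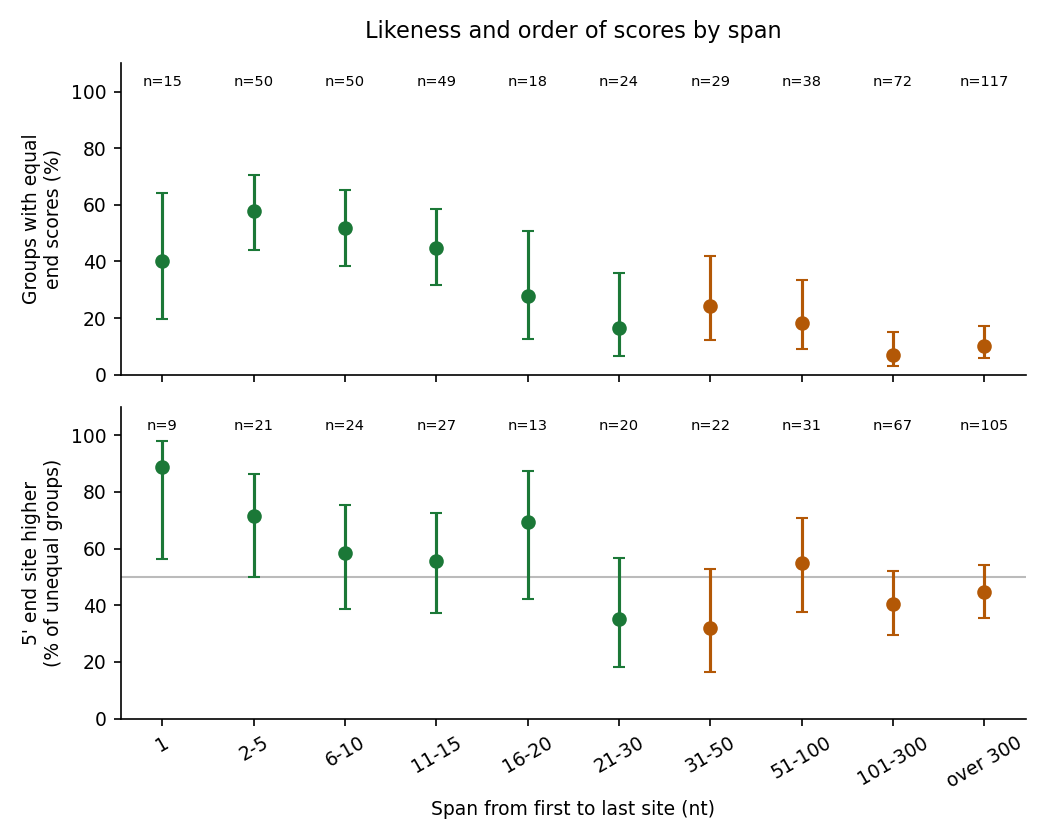
Top, share of groups with equal end scores, and bottom, share of unequal groups whose 5′ end site has the higher score (percent, points with 95% Wilson intervals), by span in nt; tight groups are green, wider loci orange, n is the number of groups and the grey line marks 50%. The share of equal scores is 40.0% at 1 nt, 58.0% at 2 to 5 nt and 16.7% at 21 to 30 nt. The 5′ share does not fall steadily: it is 88.9% at 1 nt, 55.6% at 11 to 15 nt, 69.2% at 16 to 20 nt and 35.0% at 21 to 30 nt.

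Of the 15 such groups, 6 were equal: the group with 222 on chromosome 11, one with 10 at both bases on chromosome 5 from 90575358, and 4 with scores of 3 or 4. In 8 the 5′ base was higher. On the minus strand of chromosome 12 the 5′ base at 34372608 had 16764 and the 3′ base at 34372607 had 6910. On the minus strand of chromosome X the 5′ base at 135961358 had 5100 and the 3′ base 1645. On the plus strand of chromosome 17 the 5′ base at 74557784 had 1615 and the 3′ base 134. In the other 5, the lower score was 5 to 111 and the ratio ran from 1.02 to 3.33.

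In the remaining adjacent group, the highest of all, the 3′ base was higher. On the minus strand of chromosome 1, the 3′ base at 91853149 had a score of 115250 and the 5′ base at 91853150 had 18, a ratio of 6403. This 1 group held 48.3% of the summed score of the tight groups. The 10 groups with the highest sums held 90.7% of it, and all 206 together held 2.90% of the summed score of the list.

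High groups differed among themselves in how the score was shared. On the plus strand of chromosome 20, sites at 17469757 and 17469773, 16 nt apart, had 15251 and 13629. A minus-strand group on chromosome 1, at 28242639 and 28242632, had 1978 and 2270. In these 2 groups the scores were within 1.15 times of each other. Other high groups were led by their 5′ site. On the minus strand of chromosome 17 the sites at 8076771 and 8076768, 3 nt apart, had 18807 and 2906. On the plus strand of chromosome 5 the sites at 28310991 and 28311004 had 4483 and 50, and on the plus strand of chromosome 7 those at 48672388 and 48672404 had 2097 and 303. Of the 10 groups with the highest sums, the 5′ site was the higher end in 8 and the 3′ site in 2, those on chromosome 1.

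The largest ratios after that of the first group were 552, 211, 207 and 187. The group with a ratio of 552 lay on the minus strand of chromosome 22, with 2209 at 39715057 and 4 at 39715038. The next was on the minus strand of chromosome 1, with 844 at 145969285 and 4 at 145969271, then one on the plus strand of chromosome 21 with 8 at 35677449 and 1654 at 35677474. The fifth was on the plus strand of chromosome 7, with 560 at 75573234 and 3 at 75573237. In 3 of these 5 groups the higher score was at the 5′ site.

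The 6 groups of 3 sites gave no single order. Read from 5′ to 3′, the scores were 4515, 187 and 2153 on the minus strand of chromosome 4 (from 70296660 down to 70296641), with the lowest in the middle and gaps of 16 and 3 nt. They were 372, 373 and 18 on the plus strand of chromosome 3 from 108250310, where the first 2 sites are adjacent bases and the third lies 22 nt on. They were 26, 31 and 26 on the minus strand of chromosome 21 (from 9882479 down to 9882460) and 3, 27 and 27 on the plus strand of chromosome 11 from 61623678. The last 2 groups had low scores: 8, 7 and 7 on the plus strand of chromosome 7 from 152588236, and 6, 6 and 6 on the plus strand of chromosome X from 96772895. In 3 of the 6 groups, those on chromosomes 11, 7 and X, the sites with equal scores were neighbours.

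Tight groups stood farther from other sites than lone sites or wider loci did. By the chaining rule the nearest outside site is over 1000 nt away for each of the 3 kinds. Wider loci were, however, defined by sites chained within 1000 nt of each other but spread beyond the span limit. Tight groups were defined by having no such further site. The rule thus sorted wider loci from tight groups partly by how densely sites lie. Their difference in distance is therefore a description only. The nearest site lay within 10 kb for 17 of the 206 tight groups, 8.25% (5.22 to 12.8%), against 19.2% (18.1 to 20.4%) of the 4408 lone sites and 40.2% (34.4 to 46.3%) of the 256 wider loci. Tight groups were 11.0 points below lone sites (difference -11.0, interval -14.2 to -6.26) and 32.0 points below wider loci (difference -32.0, interval -38.8 to -24.6). The median distance was 149666 nt (106152 to 203959) for tight groups, 88242 nt (82136 to 94506) for lone sites and 21240.5 nt (11874 to 41800) for wider loci. The difference from lone sites went the same way at both levels of score. With scores under 10 it was 7.62% of 105 groups against 20.0% of 3434 sites (difference -12.4, -16.3 to -5.53). With a score of at least 10 it was 8.91% of 101 groups against 16.5% of 974 sites (difference -7.62, -12.4 to -0.126).

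**Figure D5:**
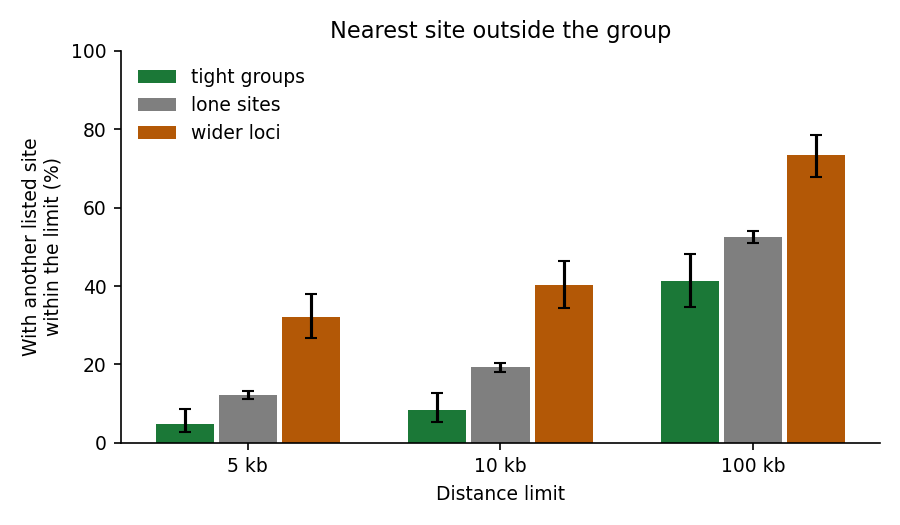
Share of tight groups, lone sites and wider loci (bars, percent, with 95% Wilson intervals) that had another listed site within 5, 10 or 100 kb. At each limit tight groups are lowest and wider loci highest, for example 8.25%, 19.2% and 40.2% for tight groups, lone sites and wider loci within 10 kb. The rule sorted wider loci from tight groups partly by how densely sites lie, so that contrast is a description only.

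The strand of that nearest site did not set tight groups apart. Of the 17 groups with a site within 10 kb, 14 had it on their own strand, 82.4% (59.0 to 93.8%), and among lone sites the share was 84.1% (81.4 to 86.4%). The interval of the difference, -25.2 to 10.0 points, is wide. Within 100 kb it was 64.7% of 85 groups (54.1 to 74.0%) and 68.8% of 2317 lone sites (66.9 to 70.6%).

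Tight groups occurred on all 24 nuclear chromosomes of the list. Chromosome 1 had 32, which was 7.05% of its 454 loci (5.04 to 9.78%), against 3.87% on the other chromosomes, a difference of 3.18 points (1.08 to 5.96). Chromosome 10 had 13 among 160 loci, 8.13% (4.81 to 13.4%). Chromosome 19, which holds 312 loci, had 5 tight groups, 1.60% (0.686 to 3.70%), against 4.34% elsewhere, a difference of -2.73 points (-3.84 to -0.57). Chromosome 2 had 9 among 368 loci, 2.45%. Chromosomes 1, 2, 10 and 19 were picked for their values among 24, and the intervals are not adjusted for that choice. Chromosome Y had 2 tight groups among 24 loci, both with a span of 9 nt and equal scores, 35 and 35 on the minus strand from 19869019 and 11 and 11 on the plus strand from 20310747.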

How the data were processed

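PAR-CLIP was made from 2 libraries of HepG2 cells with HA-METTL14. The authors used Bowtie 1.1.2, cutadapt 1.13 and FastQC 0.11.5 on hg19 (per the submitters' processing notes), and names of the deposited sites contain rbsSeeker, a site caller. For the caller's settings, the unit of the deposited score, multi-mapped reads and the pooling of libraries the labels and list state nothing, so a score could hold reads shared between places or sites. Rows were intervals of 201 nt; the base 100 nt from either edge was the site (1-based, hg19). Groups were built and counted with Python 3.11.15, and the counting was tested on simulated data. Shares have 95% Wilson intervals and differences Newcombe intervals (scipy 1.17.1, statsmodels 0.14.6), medians order-statistic intervals; no p-value was computed. Members and lists were chosen with earlier results of these data known. Named were the 10 groups with the highest summed score, the 5 with the largest ratio, the 5 highest with equal end scores of at least 10, the groups of 3 sites, and those with spans of 28 to 33 nt; adjacent bases and chromosome Y were added after values were seen, as were the counts of equal scores and the comparisons with lone and wider loci by score level. Alternatives were other span limits, chaining distances, a minimum score of 5 and other group sizes. The planned base and motif check needs hg19 sequence and was not run.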

Additional observations from a re-analysis of the deposited data

How the results depend on the processing

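Of 81 values recomputed for 11 results, 71 lay inside the reported value's interval (for the number of groups, within 1.5 times). A change of direction could be recorded only for the 5′ share and for the differences from wider loci, and 0 of these values changed direction. Of the 81 values, 21 were chosen after the list was seen. With a span limit of 10 nt there were 115 groups holding 3.88% of sites, 53.0% of groups had equal end scores and the 5′ site was higher in 68.5% of unequal groups. Limits of 20 and 50 nt placed 6.20% and 8.07% of sites in groups, and at 20 nt 64.7% of gaps were at most 10 nt, as a narrower limit must raise. The 5′ share, 59.6% as reported, ran from 55.1% to 68.5% over its 8 alternatives. Its interval took in 50% with a span limit of 50 nt (55.1%, 46.8 to 63.2%), chaining distances of 500 nt (59.0%, 49.9 to 67.5%) and 5000 nt (59.4%, 49.9 to 68.3%), groups of 2 sites only (59.1%, 49.7 to 67.8%) and without adjacent bases (57.1%, 47.6 to 66.2%). Its difference from wider loci ran from 10.3 to 23.3 points over 7 alternatives, and the interval included 0 in 1, the span limit of 50 nt (-0.524 to 20.8). When sites with a score under 5 were dropped before chaining, there were 124 groups with a median score of 18, and 37.1% had equal end scores. No paired analysis was possible because both samples belong to 1 group, and neither replicate could be left out, as each score covers both libraries. Depth is unknown, so a single listed site does not show that its neighbours were not crosslinked.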

Other observations

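Scores of at least 500 in tight groups were mostly held by 1 site of the whole list, but 4 such values recurred. The score 534 occurred at 3 sites, all in 2 tight groups on the minus strand of chromosome 1: at 149514123 and 149514134, and at 147511071, whose partner at 147511063 had 179. The score 560 at 75573234 on chromosome 7 recurred at 133012674 on the minus strand of chromosome 2, the score 2097 at 48672388 on chromosome 7 recurred at 86781638 on the minus strand of the same chromosome, and the score 2153 at 70296641 on chromosome 4 recurred at 45848247 on the minus strand of chromosome 11. These 3 partners lay outside tight groups. Of the 206 tight groups, 40 shared both their spacing and their scores with another group. The highest score among these 40 was 6, and 0 pairs of groups with a score of at least 10 did so.

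A site within 10 kb was found for 4 of the 92 tight groups with equal end scores, 4.35%, and for 13 of the 114 with unequal ones, 11.4%. That difference was not tested.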
